A study of Mus musculus with 6 samples.

Results

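The replication-dependent histone genes were taken by name, as every gene whose single annotated symbol follows the older pattern (Hist1h, Hist2h, Hist3h or Hist4h) or the newer one (H1f, H2ac, H2bc, H3c or H4c with a number), which gave 40 of the 20416 genes on the arrays. They comprised 5 genes of the linker histone H1, 10 of H2A, 10 of H2B, 5 of H3 and 10 of H4, read by 69 probe sets, and 25 of the 40 had 1 probe set. The rule reads names and no measured value. Newer symbols are used here, with the annotated symbol at first mention of a gene that is described. Expression was measured in sorted KLS CD34- cells of mouse bone marrow (lineage negative cells that carry c-Kit and Sca-1, a gate for haematopoietic stem cells) on 3 control arrays and 3 arrays of beta-catenin floxed mice positive for vav-Cre. Vav regulatory elements drive the recombinase in blood-forming cells, so the floxed gene is open to deletion from early in that lineage. The labels do not give the controls' alleles, the age of the mice, or whether a replicate was 1 animal or a pool, so a p-value here reflects only how far these samples scatter, and that scatter may be technical. The comparison asks what changes in the stem cell gate when beta-catenin, the adhesion protein and Wnt co-activator encoded by Ctnnb1, is floxed and vav-Cre is present.

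Replication-dependent histone genes supply the core and linker histones that package newly copied DNA. Their mRNA is made mainly in S phase, is short and without introns, and typically ends in a stem-loop bound by SLBP instead of a poly(A) tail; NPAT, a substrate of cyclin E and CDK2, activates the genes at histone locus bodies. H3 and H4 form the central tetramer of the nucleosome, H2A and H2B the flanking dimers, and H1 binds the linker DNA. Most stem cells of the adult marrow are quiescent, so histone mRNA in such a gate is commonly read as a sign of cells in cycle. In bulk samples such as these, fewer cells of a type and less RNA per cell cannot be told apart.

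Promoters of the histone classes carry different short motifs, and 4 promoters, of an H1, an H2A, an H2B and an H4 gene described below, are shown to make this visible. Of the 40 genes, 34 had a promoter window in RefSeq (GRCm38.p6); the 210 bases before the annotated start are printed 5′ to 3′ on the gene's strand, in lower case with motif matches in capitals. The motifs searched in the 250 bases before the start were the octamer ATTTGCAT, the CCAAT box, AAACACA (the H1 box) and GGTCCG (the core of the H4-specific element), each on both strands, and TATAAA on the gene's strand; no match in the printed sequences overlaps another. H1f5 lies at chr13:21780626-21780835 on the minus strand, H2ac20 at chr3:96220881-96221090 on the minus strand, H2bc8 at chr13:23571190-23571399 on the plus strand and H4c6 at chr13:23551669-23551878 on the minus strand.
H1f5: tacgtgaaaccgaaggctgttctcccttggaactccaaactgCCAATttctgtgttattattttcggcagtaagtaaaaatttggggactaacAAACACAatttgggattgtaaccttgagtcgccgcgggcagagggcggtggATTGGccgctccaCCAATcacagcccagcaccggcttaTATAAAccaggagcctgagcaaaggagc
H2ac20: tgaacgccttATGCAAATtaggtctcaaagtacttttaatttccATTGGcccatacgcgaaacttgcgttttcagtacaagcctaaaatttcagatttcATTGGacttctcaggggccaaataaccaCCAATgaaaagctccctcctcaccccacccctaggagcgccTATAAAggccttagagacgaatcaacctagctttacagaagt
H2bc8: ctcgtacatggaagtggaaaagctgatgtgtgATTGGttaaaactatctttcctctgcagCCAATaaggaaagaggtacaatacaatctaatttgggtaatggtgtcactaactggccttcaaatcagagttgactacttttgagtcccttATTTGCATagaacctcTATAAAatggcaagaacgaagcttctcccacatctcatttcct
H4c6: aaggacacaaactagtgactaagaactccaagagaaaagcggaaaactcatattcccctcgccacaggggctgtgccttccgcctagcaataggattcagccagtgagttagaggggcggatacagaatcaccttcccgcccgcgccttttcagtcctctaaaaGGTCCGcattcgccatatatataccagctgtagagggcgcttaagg
In these letters H1f5 has the H1 box, CCAAT and TATA, H2ac20 and H2bc8 have the octamer, CCAAT and TATA, and H4c6 has the H4 element without any CCAAT match.

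Over the classes, the octamer, the H1 box and GGTCCG divided in the same way in most windows, and TATA did not. The octamer stood in 6 of 10 H2A windows and 5 of 8 H2B windows (H2bc6 has a pair of windows), in 0 of the 17 H1, H3 and H4 windows, and in 1.60% of all 32851 RefSeq windows. The H1 box stood in 4 of 5 H1 windows, against 6.25% of all windows, and GGTCCG in 7 of 9 H4 windows, against 6.72%. Outside their own class, the H1 box stood in 2 H2A windows and 1 H2B window, and GGTCCG in 1 H2B window. CCAAT stood in every H1, H2A and H2B window, in 1 of 3 H3 and in 3 of 9 H4 windows, against 33.8% of all windows. TATA stood in 4 of 5 H1, 4 of 10 H2A and 2 of 8 H2B windows. It also stood in 1 of 3 H3 and 4 of 9 H4 windows, against 7.59% of all windows. Among the H2A and H2B genes with a window, the 11 with an octamer had a median log2 difference (floxed minus control) of 0.15, from −0.32 to 1.09, and the 6 without one had −0.01, from −0.41 to 0.28. The 2 ranges overlap, and a match in letters does not show a bound factor. Among those without an octamer, H2ac11, H2ac13 and H2bc22 had means under 6.31 log2, the dim level defined below. Among those with one, H2ac6 and H2ac8 did. The sets thus differ in brightness too, and its part in the 2 medians was not tested.

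The histone genes as a group differed little between control and floxed arrays, and no member passed the test. In limma's test over all genes, 0 of 40 members passed at an adjusted p of 0.05, where 2 of 20416 genes (0.0098%) did. An unadjusted limma p under 0.05 was reached by 3 members, where 5.23% of all genes reached it in either direction. They were H2ac20, H2aw and H1f5, all higher in floxed arrays, a side on which 2.71% of all genes reached it. On the lower side 0 members did, beside 2.52% of all genes. Groups did not overlap for 4 members, all higher in floxed arrays (those 3 and H2ac4), or 10% against 5.05% of all genes, and for 0 members on the lower side, against 5.49%. The log2 difference was above 0 for 25 members and below 0 for 15, with a median of 0.05, beside a median of −0.00083 and 49.8% above 0 over all genes. For 33 of the 40 (82.5%) the 95% confidence interval lay within 1 log2 of 0, a smaller share than the 96.1% of all genes, and for 20 of the 40 (50%) within 0.5, where 39.5% of all genes did.

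**Figure D1:**
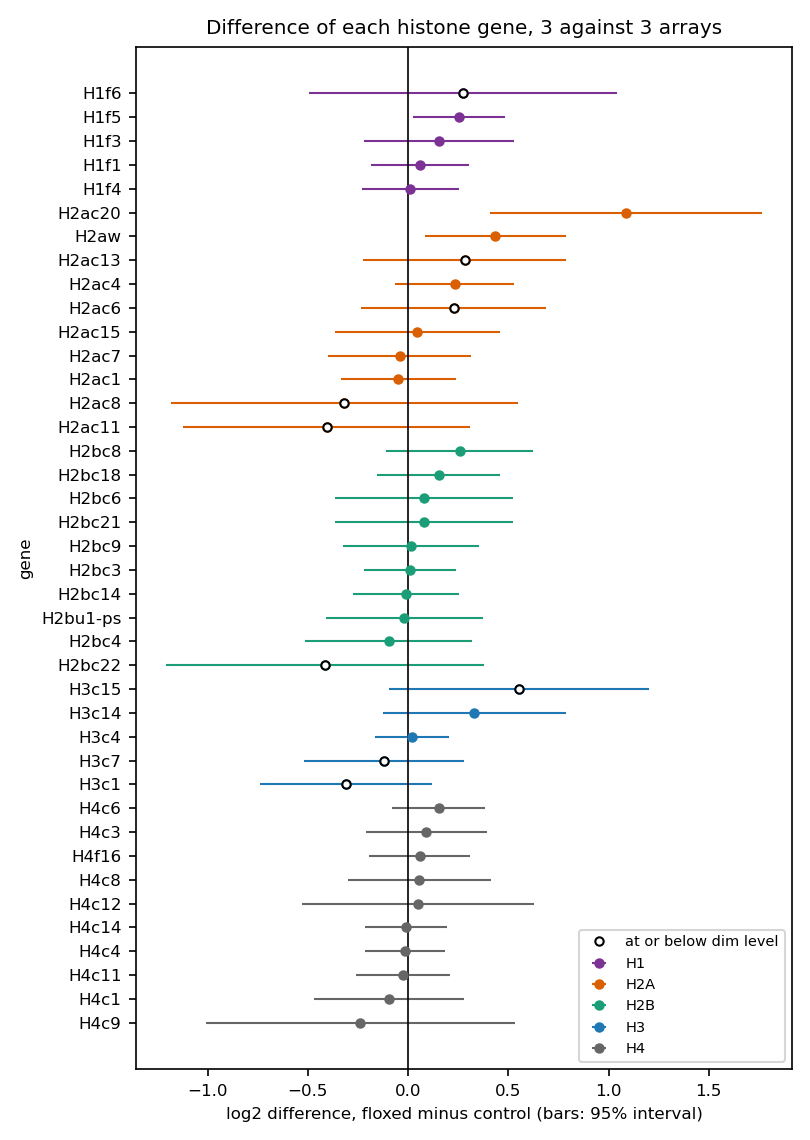
Log2 difference, floxed minus control, of each of the 40 histone genes (points, coloured by class) with its 95% confidence interval from limma (bars); open circles mark the 9 genes at or below a dim level of 6.31 log2 (the 95th percentile of olfactory receptor genes). The intervals of H2ac20, H2aw and H1f5 lie above 0, and 8 of the 10 H4 intervals lie within 0.5 of it.

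The count of higher members turned on single control arrays. On control replicate 3, 24 of the 40 members had their lowest value (60% against 29.5% of all genes), and on control replicate 1, 17 had their highest (42.5% against 20.7%). As the median deviation of the 40 genes from their own means over all 6 arrays, controls were at 0.14, −0.08 and −0.17 log2 in replicate order, and floxed arrays at 0.03, 0.05 and −0.01. The floxed arrays thus lay between the control arrays. Without control replicate 3, 16 of 40 members were higher and their median difference was −0.01, when 46.7% of all genes were higher, with a median of −0.01. Without control replicate 1, 33 members were higher and their median was 0.11, when 49.3% of all genes were higher, with a median of −0.005. In that setting 9 members had an unadjusted limma p under 0.05, when 14.4% of all genes did. The median SD of a member was 0.22 log2 on control arrays and 0.11 in floxed arrays, and 34 of 40 members varied more among controls (85% against 70.9% of all genes). With equal array medians 21 of 40 members were higher, when 43.4% of all genes were, and with quantile normalization 22, when 46.3% were.

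**Figure D2:**
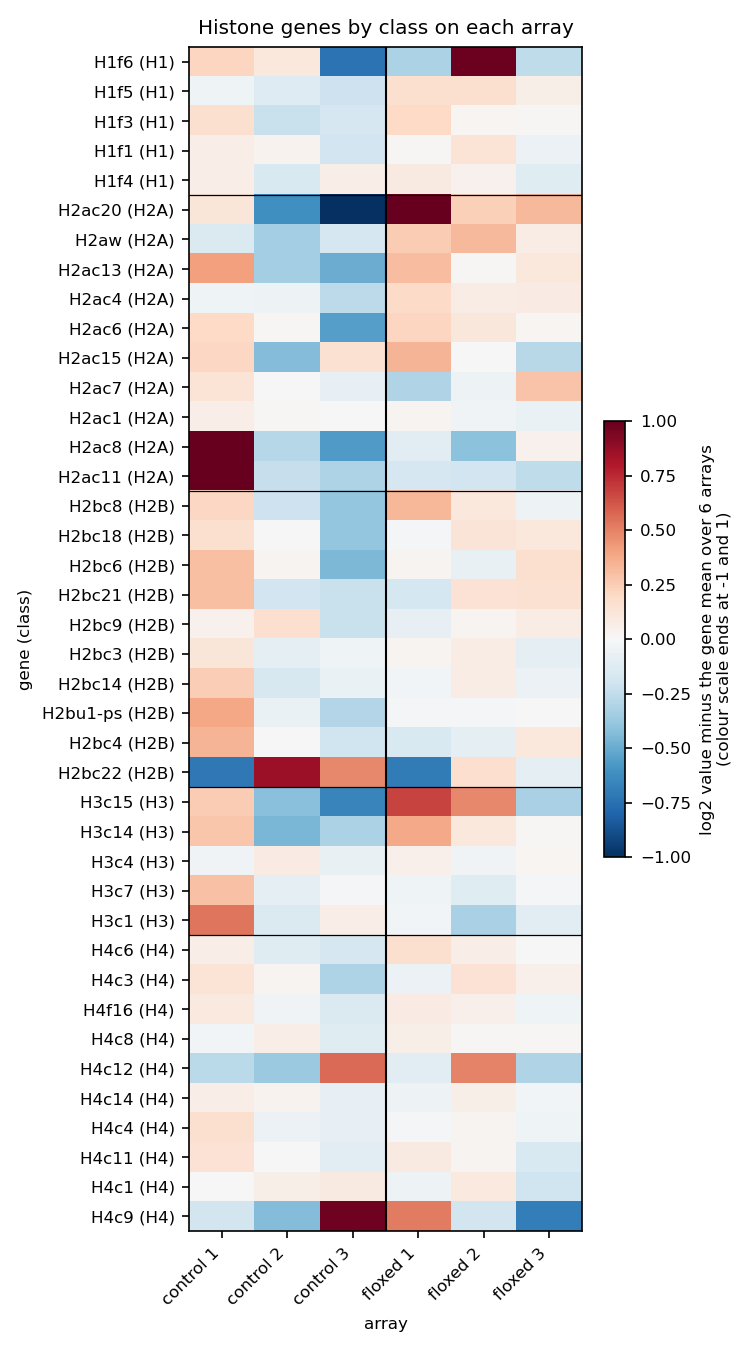
Each row is a histone gene, ordered by class and then by difference, and each column an array; colour gives the log2 value minus that gene's mean over the 6 arrays. Control replicate 3 holds the lowest value of 24 of the 40 genes and control replicate 1 the highest of 17.

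Of the 4 members whose groups did not overlap, 3 were H2A genes. H2ac20 (Hist2h2ac), an H2A gene of the Hist2 cluster on chromosome 3, had log2 values of 7.72, 6.98 and 6.46 on control arrays and 8.67, 7.84 and 7.92 in floxed arrays. The groups did not overlap, but the highest control and the lowest floxed array were close. Its log2 difference was 1.09 (SE 0.31, 95% interval 0.41 to 1.77; limma unadjusted p = 0.00461, adjusted p = 0.915), the 1 member past an absolute log2 difference of 1, where 0.211% of all genes were. It rested on 1 probe set and ran from 0.79 without control replicate 3 to 1.42 without control replicate 1. Each further probe set that names H2ac20 names other histone genes too. Those read 13.31 to 13.55 log2 over the arrays and differed by 0.003 to 0.008 between groups. They do not isolate H2ac20, so its own level could not be checked on a second probe set.

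H2aw (Hist3h2a), the H2A gene of the Hist3 cluster on chromosome 11, had 7.53, 7.34 and 7.51 on control arrays and 7.94, 8.002 and 7.75 in floxed arrays. Every floxed array was above every control, with a difference of 0.44 (SE 0.16, limma adjusted p = 0.915). The 5 probe sets of H2aw did not move alike: the gene value was that of the middle one, while the brightest, at 12.62 on control arrays and 12.58 in floxed arrays, differed by −0.04, and it stood in the table under 2 numbers with the same values. With such identical probe sets counted once the difference was 0.20, and the gene no longer had an unadjusted p under 0.05. H2ac4 (Hist1h2ab), of the large Hist1 cluster on chromosome 13, had 9.09, 9.08 and 8.87 on control arrays and 9.32, 9.20 and 9.21 in floxed arrays, which did not overlap (difference 0.23, SE 0.14).

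The remaining 7 H2A genes overlapped between groups. H2ac11 (Hist1h2ag) had 6.58, 5.20 and 5.12 on control arrays and 5.26, 5.24 and 5.18 in floxed arrays, so its difference of −0.41 lay with control replicate 1, and it was 0.07 without that array. H2ac13 (Hist1h2ai) had a difference of 0.28 at means of 4.44 and 4.72. H2ac7 (Hist1h2ad) had means of 9.43 and 9.39, although its 3 probe sets differed by −0.76, 0.04 and −0.03. H2ac8 (Hist1h2ae) had a gene value of 5.57 ± 1.02 (SD, n = 3) for controls against 5.25 ± 0.23 (SD, n = 3) for floxed arrays, while its brightest probe set read 12.88 and 12.92. H2ac6 (Hist1h2ac) had 0.23 (SE 0.21) and H2ac15 (Hist1h2ak) 0.05 (SE 0.19). H2ac1 (Hist1h2aa), which encodes the testis form TH2A, had 8.95 ± 0.04 and 8.90 ± 0.05 (SD, n = 3 each).

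H1 genes all had differences above 0 on the values as deposited. The 0.01 of H1f4 was smaller in size than the −0.03 by which equal array medians moved the median of all genes. Of the 5 genes, 1 had an unadjusted limma p under 0.05, where 2.71% of all genes did on the higher side. H1f5 (Hist1h1b) had 11.27, 11.19 and 11.11 on control arrays and 11.48, 11.47 and 11.38 in floxed arrays. The groups were narrow and did not overlap (difference 0.25, SE 0.11, 95% interval 0.02 to 0.48; limma unadjusted p = 0.0338, adjusted p = 0.915). Leaving out any 1 array gave between 0.21 and 0.29. H1f3 (Hist1h1d) had 0.15 (SE 0.17), H1f1 (Hist1h1a) 0.06 (SE 0.11) and H1f4 (Hist1h1e) 0.01 (SE 0.11). H1f6 (Hist1h1t), the testis H1, had 0.27 (SE 0.35) at means of 5.62 and 5.90; 2 of its 3 probe sets were higher and 1 lower.

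H2B genes showed no member whose groups stood apart. H2bc8 (Hist1h2bg), whose promoter is shown above, had 10.47, 10.06 and 9.88 on control arrays and 10.60, 10.37 and 10.22 in floxed arrays. Control replicate 1 lay among the floxed arrays, and the difference was 0.26 (SE 0.17, limma adjusted p = 0.915). H2bc8 is transcribed away from H2ac8 out of a common stretch, and that partner had −0.32 (SE 0.39), and both intervals include 0. The H2ac8 value was dim, and the brightest H2ac8 probe set differed by 0.04. H2bc18 (Hist2h2bb) had 0.15 (SE 0.14), with its brightest probe set at 11.93, 11.70 and 11.59 on control arrays and 12.09, 12.16 and 11.98 in floxed arrays; those did not overlap and differed by 0.34 (SE 0.12, limma unadjusted p = 0.0224 over all probe sets, adjusted p = 0.976). H2bc22 (Hist1h2bp) had −0.41 (SE 0.36), H2bc4 (Hist1h2bc) −0.10 (SE 0.19) and H2bc6 (Hist1h2be) 0.08 (SE 0.20). The best bounded were H2bc3 (Hist1h2bb), with an interval of −0.22 to 0.24, and H2bc14 (Hist1h2bm), with −0.27 to 0.25. H2bu1-ps (Hist3h2bb), which matches the rule by name and is a transcribed pseudogene in RefSeq, had −0.02.

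All 5 H3 genes overlapped between groups, and each interval included 0. The Hist2 genes H3c15 (Hist2h3c2) and H3c14 (Hist2h3c1) had differences of 0.55 (SE 0.30) and 0.33 (SE 0.21). H3c15 read 6.25, 5.58 and 5.34 on control arrays and 6.67, 6.48 and 5.68 in floxed arrays, and H3c14 read 8.26, 7.52 and 7.66 on control arrays and 8.36, 8.08 and 7.99 in floxed arrays. In both, control replicate 1 was the array of its group that overlapped the floxed arrays. The H3c14 value stands in the table under 2 probe set numbers, and its remaining and brightest probe set differed by −0.03. The Hist1 genes H3c1 (Hist1h3a), H3c7 (Hist1h3f) and H3c4 (Hist1h3d) had −0.31 (SE 0.20), −0.12 (SE 0.18) and 0.02 (SE 0.08). H3c4 had 13.58 ± 0.08 on control arrays and 13.60 ± 0.04 in floxed arrays (SD, n = 3 each), with an interval of −0.16 to 0.20.

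H4 genes lay close to 0. All 10 overlapped between groups, 5 were higher and 5 lower, the median was 0.02, and 8 of 10 intervals lay within 0.5 log2 of 0. H4c6 (Hist1h4f), of the promoter above, had 12.01, 11.83 and 11.78 on control arrays and 12.11, 12.02 and 11.95 in floxed arrays (difference 0.15, SE 0.11). H4c4 (Hist1h4d) had 13.87, 13.65 and 13.63 on control arrays and 13.70, 13.74 and 13.67 in floxed arrays, with an interval of −0.21 to 0.18. H4c3 (Hist1h4c) had 0.09 (SE 0.14), H4c14 (Hist2h4) −0.01 (SE 0.09) and H4f16 (Hist4h4), which stands alone on chromosome 6, 0.06 (SE 0.11). H4c9 (Hist1h4i) had 9.74, 9.49 and 10.90 on control arrays and 10.45, 9.75 and 9.23 in floxed arrays, a difference of −0.24 (SE 0.35). The gene value was that of 1 of its 3 probe sets, and the brightest of them differed by 0.08. The values of H3c4 and H4c4 lay near the top of the table, whose highest value was 14.53, and whether that limits the differences they can show was not tested.

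**Figure D3:**
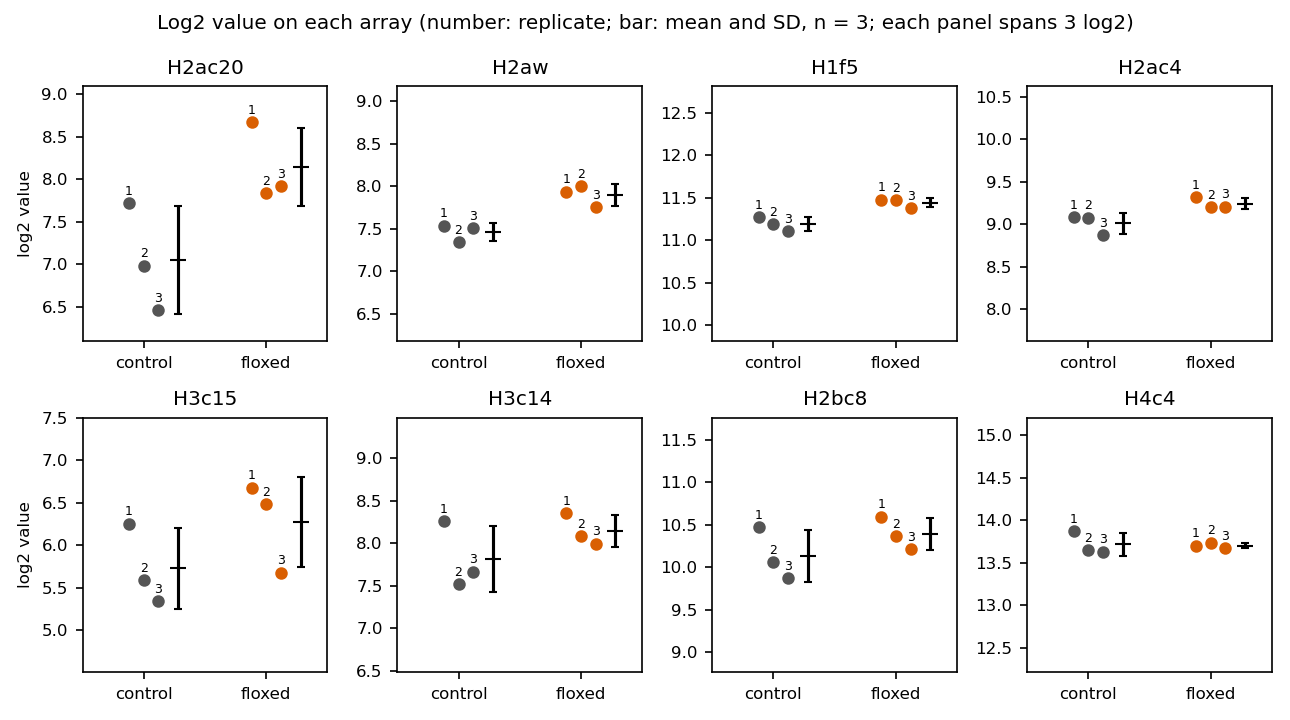
Log2 values of 8 histone genes on each array (points, numbered by replicate) with the group mean and SD (bars, n = 3); each panel spans 3 log2. H2ac20, H2aw, H1f5 and H2ac4 do not overlap between groups, while in H3c15, H3c14 and H2bc8 control replicate 1 lies among the floxed arrays and in H4c4 it lies above them.

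By genomic cluster, the 31 Hist1 genes had a median difference of 0.01, with 18 higher, and the 6 Hist2 genes had 0.24, with 5 higher. In Hist2, H2bc21 (Hist2h2be) had 0.08 and H4c14 the 1 negative value. The array order within Hist2 was close to that of the whole family, with medians of 0.21, −0.31 and −0.35 on control arrays and 0.18, 0.14 and 0.06 in floxed arrays, so control replicate 1 was above all 3 floxed arrays. That the 2 clusters differ was not tested.

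Brightness set how much could be read from a member. The 982 olfactory receptor genes, which blood cells are not known to rely on, had a 95th percentile of 6.31 log2, here called the dim level. Of the histone genes 31 had a mean above it and 9 did not, where 13525 of all 20416 genes were above it. The 31 brighter genes had a median difference of 0.05 (21 higher), and the 9 dim ones −0.12 (4 higher), with a median half-width of the interval of 0.34 and 0.65 log2. Bright genes in general were more often higher in floxed arrays. With probe sets filtered at percentile 50 of brightness, 20 of 29 members (69.0%) were higher, when 54.2% of all genes were. At percentile 75 it was 14 of 23 members (60.9%), when 58.5% of all genes were. The olfactory receptors themselves were lower in floxed arrays for 903 of 982 genes, by a median of −0.22, with a median deviation of 0.38 on control replicate 3 and between −0.14 and −0.01 on the other 5 arrays. The 9 dim histone genes did not follow the olfactory receptors: their median deviation on control replicate 3 was −0.49, and 6 of the 9 had their lowest value there.

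Genes that make, process and place histones did not pass either. In the list for histone mRNA production and processing, 0 of 23 genes passed, 0 had an unadjusted limma p under 0.05, 17 were higher and the median was 0.10. Slbp, the stem-loop binding protein, had 0.32 (SE 0.20), and Cstf2, a cleavage factor, 0.20 (SE 0.13). Srrt (ARS2), which links the cap to histone mRNA processing, had 0.23 (SE 0.12) and did not overlap between groups. It was the 1 such gene of the 23, or 4.35% against 5.05% of all genes on the higher side. Npat had 0.14 (SE 0.15) and Hinfp, the factor of the H4 element, 0.19 (SE 0.22). Among histone chaperones and assembly factors 0 of 20 passed, 1 (Chaf1a) had an unadjusted limma p under 0.05, 14 were higher and the median was 0.07. Chaf1a, the large subunit of the assembly factor CAF-1, read 8.52, 8.68 and 8.30 in the control group and 9.13, 8.79 and 8.75 in the floxed group, which did not overlap (difference 0.39, SE 0.16, limma adjusted p = 0.915). Atrx had 0.24 and Nap1l4 0.20, also without overlap, and Asf1b −0.07. Groups thus did not overlap for 3 of the 20 on the higher side, or 15% against 5.05% of all genes. On the lower side 1 of the 20 did not overlap, where 5.49% of all genes did not. It was Nap1l1, a nucleosome assembly protein (−0.13, SE 0.10). Replacement histones, which are made outside S phase as well, passed for 0 of 10 genes, none with an unadjusted limma p under 0.05, with 7 higher and a median of 0.09; H2afx, the damage-marked H2A.X, had 0.30 (SE 0.18), H2afv 0.22, H2afj 0.36 and H3f3b, an H3.3 gene, 0.06.

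S phase and mitosis genes had an order of arrays close to that of the histone genes. Of 39 S phase genes 0 passed, 1 (Rfc3) had an unadjusted limma p under 0.05, 25 were higher and the median difference was 0.09, with Rfc3 at 0.40 (SE 0.17), Tipin at 0.36, Gmnn at 0.62 (SE 0.31), and Pcna and Mcm2 at 0.16 and −0.002. The 1 S phase gene whose groups did not overlap was lower, Pold1, the catalytic subunit of DNA polymerase delta, at −0.25 (SE 0.13). That is 1 of 39, where 5.49% of all genes did not overlap on the lower side. Of 19 G2 and mitosis genes 0 passed, 1 (Birc5) had an unadjusted limma p under 0.05, 15 were higher and the median was 0.15. Groups did not overlap for 3 of the 19, all higher, or 15.8% against 5.05% of all genes. They were Birc5, a survival and mitosis factor, at 0.53 (SE 0.15, limma adjusted p = 0.915), Top2a at 0.19 and Aurka at 0.10. Cdk1 had 0.37 and Mki67 0.13. Median deviations of the S phase list were 0.10, −0.06 and −0.19 on control arrays and 0.09, 0.02 and 0.01 in floxed arrays; those of the mitosis list were 0.14, −0.09 and −0.24, and 0.15, 0.04 and 0.03. In all 3 lists, control replicate 1 was high, control replicate 3 the lowest of the 6, and the floxed arrays lay between or at the level of control replicate 1. The replacement histones did not follow that order, with −0.07, −0.09 and 0.01 on control arrays and −0.05, 0.11 and 0.04 in floxed arrays. Histone mRNA production genes were lowest on control replicate 3 too (controls 0.02, 0.02 and −0.18, floxed arrays 0.08, 0.01 and 0.07). So were chaperone and assembly genes (controls 0.02, 0.05 and −0.23, floxed arrays 0.10, 0.02 and 0.01). On that array 15 of the 23 and 11 of the 20 had their lowest value, where 29.5% of all genes did. That low was thus not particular to the histone, S phase and mitosis lists.

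**Figure D4:**
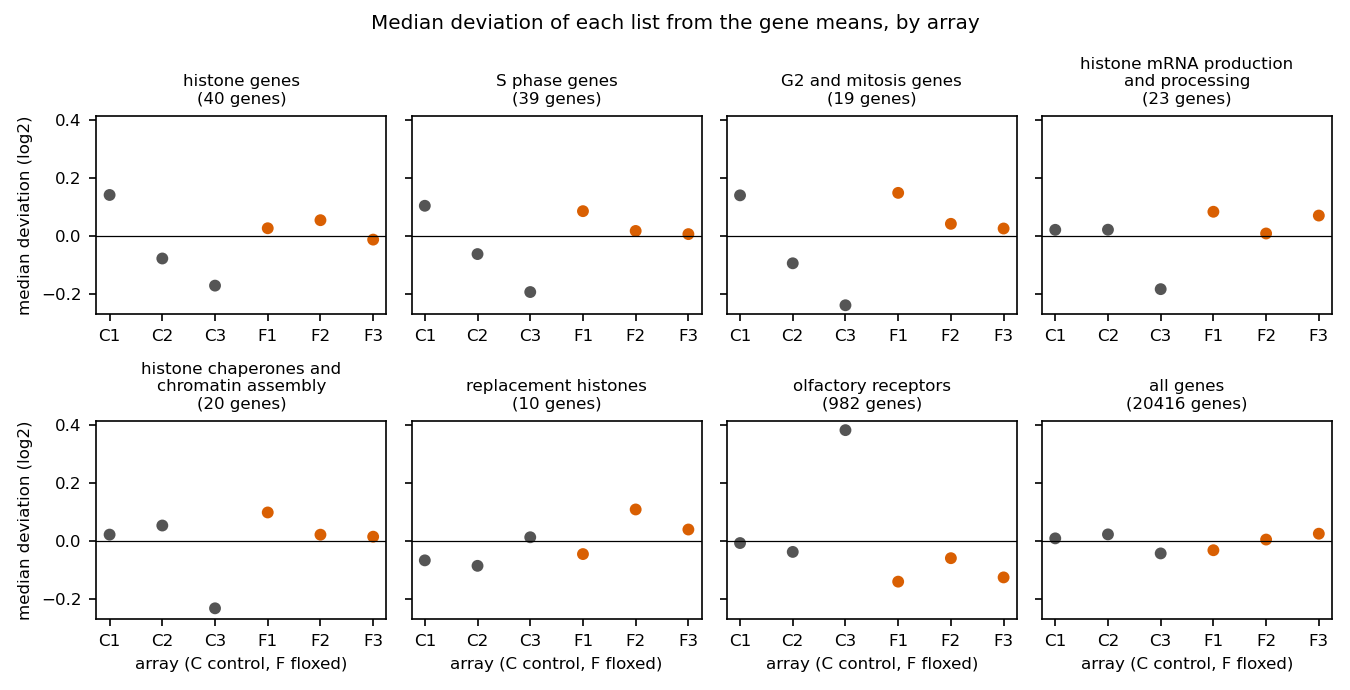
Median deviation (log2) of each gene list from the genes' own means over the 6 arrays, for control (C1 to C3, grey) and floxed arrays (F1 to F3, orange). Histone, S phase and mitosis genes are highest or nearly so on C1 and lowest on C3, where the olfactory receptors are at 0.38. The lists for histone mRNA production and for chaperones are also lowest on C3.

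Checks of the samples bear on these values. Ctnnb1 fell in floxed arrays on 5 of its 17 probe sets, by log2 differences of −6.90 to −2.51 (limma adjusted p up to 0.0110); the sources used here do not place them on the deleted exons. Of 11 stem cell genes of the gate 10 were above the dim level, among them Kit (11.63 to 11.90), Ly6a, which encodes Sca-1 (10.93 to 11.89), and Procr (9.10 to 9.77). Hoxb5 was not. Of the 11, 0 passed, 8 were higher and 3 lower in floxed arrays, and the median was 0.08. Hoxb5 was higher without overlap (0.31, SE 0.18), the 1 such gene of the 11, where 5.05% of all genes were. Slamf1 had 0.35 (SE 0.25) and Kit −0.10 (SE 0.10). Of 5 genes of CD34 positive progenitors 0 passed. Cd27 had −0.54 (limma unadjusted p = 0.00502, adjusted p = 0.915) and did not overlap on the lower side. Gpr171 had −0.49 (limma unadjusted p = 0.0204, adjusted p = 0.915) and did not overlap either, while Cd48 had 0.37 (limma unadjusted p = 0.0381, adjusted p = 0.915). Thus 2 of the 5 did not overlap on the lower side, where 5.49% of all genes did not. Flt3 and Cd34 had 0.01 and −0.03, and the part of these genes in the histone values was not tested. Cd34 RNA read 12.62 to 12.70 on all arrays, which does not check a gate on surface protein. Markers of mature cells were above the dim level as well, for 11 of 11 granulocyte and macrophage, 5 of 5 erythroid, 7 of 7 B cell and 5 of 7 T and NK cell genes. Since 13525 of all 20416 genes were above it, these counts alone do not show that such cells were present. The B cell list had median deviations of 0.84, 0.26 and −0.83 on control arrays and −0.28, −0.15 and 0.36 in floxed arrays, and the granulocyte and macrophage list 0.40, 0.59 and −0.53, and −0.41, −0.36 and 0.27. All 11 granulocyte and macrophage genes had lower values in floxed arrays (median −0.24; Ngp −0.88, limma unadjusted p = 0.0074), as did 4 of 7 B cell genes, 4 of 5 erythroid genes and 3 of 7 T and NK cell genes. Among the last, Cd3e read 7.82, 7.42 and 7.24 for controls and 6.41, 6.49 and 6.82 for floxed arrays, a difference of −0.92 with no overlap (limma unadjusted p = 0.00083, adjusted p = 0.915). It was the 1 of the 7 T and NK cell genes without overlap, where 5.49% of all genes did not overlap on the lower side. The B cell list and the granulocyte and macrophage list were lowest on control replicate 3, as the histone genes were, and their part in the histone values was not tested.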

How the data were processed

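Gene expression was measured on 6 arrays, 3 control and 3 floxed, grouped by sample title. Labelled cRNA came from 100 ng of RNA per the labels' protocols. The deposited table holds log2 values for 241576 probe sets, from 2.44 to 14.53, and the base of the logarithm was inferred from that range. MAS5 was used per the submitters' processing notes, and the rest of the processing is not given in the sources used here. Medians of the arrays were 7.56 to 7.65, so values were taken as deposited. No detection calls were used here, and precision is limited by the number of arrays.

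Of the probe sets, 212097 have 1 symbol in the platform annotation, 4475 several and 25004 none. The value of a gene was the median over all its probe sets with that 1 symbol, without a filter, which gave 20416 genes. Groups were compared by limma 3.58.1 under R 4.3.3, using lmFit and then eBayes with its trend option; p-values are two-sided and adjusted by Benjamini-Hochberg over all genes, at a threshold of 0.05. The same test was run over all probe sets. The limma step was tested on simulated gene values, and the other steps were not. The differences added there were larger than most of those described here. All 40 histone symbols matched a current RefSeq symbol (GRCm38.p6), used for names and promoter sequences. Probe sets with 1 symbol may still bind near-identical histone copies, so the level of a single member is uncertain.

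The deviations of same-numbered arrays from their group means correlated at 0.18, −0.01 and −0.16 across genes. With 3 arrays per group these values cannot settle whether equal replicate numbers pair the samples. The labels give no pairing, and the main fit used the group only.

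The members and gene lists were chosen with earlier results of these data known. Any member could be named; given in full were, in each class, the 3 genes with the smallest p (5 for H2A and H2B), H2ac20 and the genes whose probe sets differed most, and of each pathway list the 3 with the smallest p and at most 2 textbook members. Alternatives covered normalization, filters, the summary of probe sets, the variance model, array weights, a replicate block and leaving out each array; counting identical probe sets once and taking the brightest probe set were chosen after seeing the data.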

Additional observations from a re-analysis of the deposited data

How the results depend on the processing

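No histone gene passed under any of 18 alternatives. Genes passing over the whole array numbered 2, and 0 with a filter at percentile 50 or 75 of brightness, 6 when each probe set was tested on its own, and 0 to 9 when 1 array was left out. Histone genes with an unadjusted p under 0.05 numbered 3, and 1 with the filter at percentile 75, 8 with array weights (12.1% of all genes then) and 1 to 9 with 1 array left out, the 9 without control replicate 1 and 1 without floxed replicate 1 or 2. The median difference of the family was −0.01 to 0.11 with 1 array left out. The replicate block gave 2 genes passing and 3 histone genes under 0.05, with H3c15 in place of H1f5, and 0 passing. With a filter at percentile 50 or 75, Hist3h2a turned to −0.038, Hist1h2bc to 0.074, Hist1h2ad to 0.00026 and Hist1h2ae to 0.045, and at percentile 75 Hist2h3c1 to −0.029; the brightest probe set of each gene gave the same −0.038, 0.074, 0.045 and −0.029 for Hist3h2a, Hist1h2bc, Hist1h2ae and Hist2h3c1. Hist1h4i was 0.021 with the mean of probe sets, 0.065 with array weights and 0.075 on its brightest probe set. With 1 array left out, these log2 differences changed sign: Hist1h1t (−0.15 to 0.50), Hist1h2ad (−0.20 to 0.10), Hist1h2ae (−0.68 to 0.27), Hist1h2ag (−0.66 to 0.068), Hist1h2bc (−0.22 to 0.050), Hist1h2be (−0.13 to 0.25), Hist1h4c (−0.040 to 0.18), Hist1h4i (−0.56 to 0.19) and Hist2h2bb (−0.0020 to 0.27). The other 10 of 21 genes described in full kept their sign under each alternative that gave them a value. A filter changes both the genes tested and the probe sets behind a gene's value. The cause of each change was not tested.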

Other observations

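A further 47 probe sets carry several symbols that include a replication-dependent histone gene, and they are the only source here for 22 symbols, among them Hist1h2af, Hist1h3b, Hist1h4b and Hist2h2aa1. They were left out of the members because they do not name a single gene. Some hold identical values on all 6 arrays, so the 47 give 38 distinct readings. Floxed minus control, 24 of the 38 were above 0 and 14 below, the median log2 difference was 0.005, and the smallest limma adjusted p was 0.976. The 10 distinct readings that name H3 genes alone, each 7 to 10 of them, read 13.61 to 13.88 log2 on every array and differed by −0.002 to 0.03. The 4 that name H4 genes alone read 13.41 to 13.73 and differed by 0.05 to 0.06, all 4 on the higher side. These H3 and H4 readings lay near the top of the table, whose highest value was 14.53. Whether that limits the differences they can show was not tested. The 10 that name H2A genes alone differed by −0.02 to 0.16. The 5 that name H2A and H3 genes together differed by 0.003 to 0.08, the 3 of H2B by −0.05 to −0.01, and the 5 that name an H2A gene and a gene outside the family by −0.15 to 0.23.

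One shared probe set stood apart, a reading of H1f4 (Hist1h1e) and H2bc6 (Hist1h2be) together, with 7.04, 6.96 and 6.84 on control arrays and 7.66, 7.57 and 7.38 in floxed arrays. Its difference was 0.59 (SE 0.25, limma unadjusted p = 0.0397, adjusted p = 0.976), whereas H1f4 and H2bc6 had 0.01 and 0.08 on their own probe sets.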
